A study of Mus musculus with 4 samples.

Results

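The genes described here are 42 genes of mitosis: the cyclins and kinases of mitotic entry, the spindle checkpoint, the kinetochore and centromere, the chromosomal passenger complex, spindle motors and microtubule-associated proteins, and the proteins of anaphase and cytokinesis. They were chosen by gene symbol from a list of textbook roles, and all 42 were found among the 54641 symbols of the deposited expression table and were among the 14888 genes tested. The table held bulk RNA sequencing of 4 mouse cell lines of small cell lung cancer (SCLC), with 1 library per line. M1 was grown from a liver metastasis, and P1, P4 and P5 from primary tumors of the lung. All 4 lines came from an autochthonous mouse model on a C57BL/6 background, in which Cre delivered to the lung by adenovirus deletes conditional alleles of Rb1 and Trp53, so the primary lines carry the same engineered deletions as M1. The cells grew untreated in RPMI medium with serum. Whether any of the lines share an animal is not settled by the sources used here. With 1 metastatic line, what distinguishes the metastasis and what distinguishes that 1 culture cannot be told apart. The labels give lung as the origin of all 4 lines, M1 included, and name each genotype as a numbered WT without saying what that means. For the mice of the model the methods give a lower age limit, and no age is given for single lines.

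When a cell enters mitosis, CDK1 bound to B-type cyclins condenses the chromosomes and starts spindle assembly. Microtubules then attach to kinetochores, which are built on centromeric chromatin, and the spindle assembly checkpoint holds back anaphase until every kinetochore is attached. The anaphase-promoting complex with its activator CDC20 next marks securin and cyclin B for destruction, separase cleaves cohesin, and the central spindle directs cytokinesis. Transcription of many of these genes peaks in G2 and mitosis. RB-family proteins and the DREAM complex hold such genes down in resting cells, and B-MYB and FOXM1 act on them together with MuvB in cycling cells. RB1 and p53 are the proteins lost in this tumor model, and SCLC is known for rapid proliferation.

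The libraries differed in ways that touch every value that follows. Values are in CPM, the reads of a gene scaled to a library total of 1000000, so levels were compared between lines and not between genes. The step of the low values corresponded to 11170276 assigned reads in M1 and to 9527011, 13890726 and 11523176 in P1, P4 and P5. M1 and P4 had fewer symbols above 0, 10074 and 7985, against 17824 in P1 and 20578 in P5. Of 7534 genes that reached 10 CPM in P1 as well as P5, M1 listed 10.1% at 0 and P4 listed 19.8% at 0. P1 and P5 carry the same number in their column names, while M1 and P4 carry others. The labels do not say what it stands for, so a run or a day cannot be told apart from the lines. A gene at 0 is for this reason described as listed at 0, not as absent. Rb1 was listed at 0 in M1 and P4, against 10.3 CPM (P1) and 13.2 CPM (P5), and Trp53 was at or below 0.260 CPM in every line. Whether the reads fall in the deleted exons cannot be read from a table of genes. Of 8 neuroendocrine markers, 5 reached 1 CPM in M1, against 2 in P1, 1 in P4 and 6 in P5, and Chga and Calca were listed at 0 in every line but P5. The summed level of 4 epithelial markers was 745 CPM in M1, against 142 to 2664 CPM in the primary lines, while Epcam and Cdh1 were listed at 0 in P4. The summed level of 8 immune markers was 125 CPM in M1, against 0.0720 to 11.8 CPM in the primary lines, with Cd3e listed at 0 in all 4. Most of the M1 sum was Lyz2, Laptm5 and Csf1r, at 47.4, 39.1 and 28.0 CPM. Ptprc was not higher in M1: both M1 and P4 listed it at 0, while P1 held 0.105 CPM of it and P5 held 0.174 CPM. For 6 fibroblast markers the sum was 38.5 CPM in M1, against 33.7 to 924 CPM in the primary lines. Nearly all of the sum in M1 and P4 was Col1a2, at 38.4 and 33.6 CPM. Hepatocyte markers, 4 in number, were all listed at 0 in M1 and summed to at most 1.56 CPM in a primary line. The part of these differences in the results on mitotic genes was not tested.

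The promoters show what these genes share beyond their function. The cell cycle homology region, searched as TTTGAA on either strand, is the element bound by MuvB, and the CCAAT box, searched as CCAAT on either strand, is the element bound by NF-Y. The motifs can overlap each other by at most 1 base. Windows of 250 bases before to 50 bases after the transcription start came from RefSeq (GRCm38.p6, the mm10 build) and were found for 34 of the 42 genes. TTTGAA was present in 25 of the 34 windows (73.5%), against 16.5% of 17491 windows of protein-coding genes. CCAAT was present in 26 (76.5%), against 39.0% of all windows, and both were present in 22 (64.7%), against 6.68%. The 32 TTTGAA matches lay close to the start, 17 upstream and 15 downstream of it, with a median distance of -10 bases. The 54 CCAAT matches lay further upstream, 52 of them before the start, with a median distance of -54.5 bases. A match is a run of letters and not a measured binding site. Mad2l1, Nuf2, Birc5, Nusap1 and Pttg1 held neither motif in this window.

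**Figure D1:**
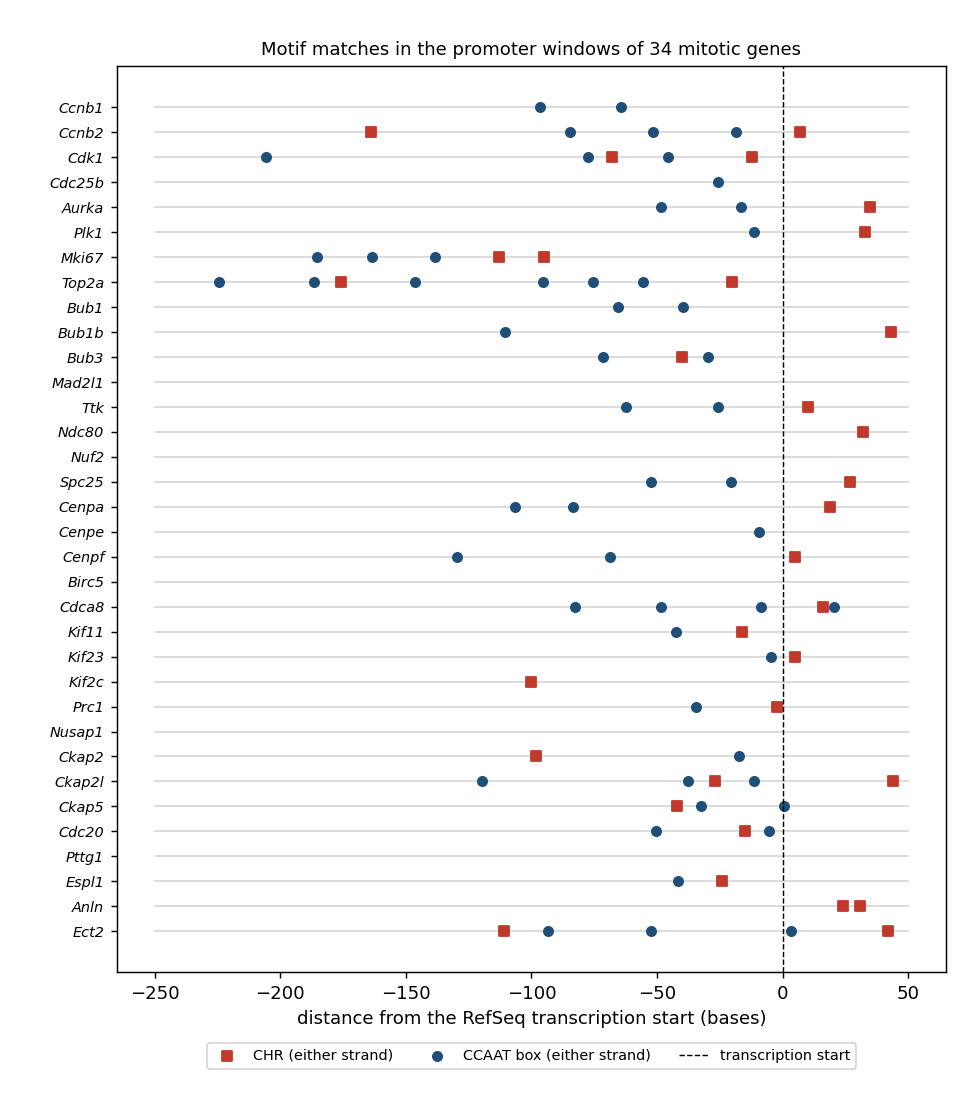
Matches to TTTGAA and CCAAT on either strand in the promoter windows of 34 mitotic genes, by distance in bases from the RefSeq transcription start (dashed line). Of 32 TTTGAA matches, 15 lay downstream of the start, whereas 52 of 54 CCAAT matches lay upstream.

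The windows printed here belong to 6 of the genes on which the comparisons between lines turn, all of them with both motifs. Cenpf and Ckap2l were lower in M1 than in every primary line, Cdk1 and Bub3 were higher in M1 than in every primary line, and Ccnb2 and Ttk were lowest in P4. Each shows 130 bases before and 29 bases from the start onwards, 5′ to 3′ on the strand of the gene, with matches to either motif, on either strand, in capitals.
Cenpf, chr1:189688058-189688216, minus strand: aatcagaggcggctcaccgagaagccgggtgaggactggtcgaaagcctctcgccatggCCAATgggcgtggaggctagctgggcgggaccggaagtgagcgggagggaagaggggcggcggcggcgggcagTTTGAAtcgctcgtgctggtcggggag
Ckap2l, chr2:129297184-129297342, minus strand: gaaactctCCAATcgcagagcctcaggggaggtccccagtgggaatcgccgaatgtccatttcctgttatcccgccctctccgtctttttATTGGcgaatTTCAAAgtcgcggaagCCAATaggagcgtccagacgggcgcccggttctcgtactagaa
Cdk1, chr10:69352884-69353042, minus strand: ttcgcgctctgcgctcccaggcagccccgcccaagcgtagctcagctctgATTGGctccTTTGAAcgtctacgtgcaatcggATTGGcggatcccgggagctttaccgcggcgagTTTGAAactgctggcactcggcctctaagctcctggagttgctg
Bub3, chr7:131560240-131560398, plus strand: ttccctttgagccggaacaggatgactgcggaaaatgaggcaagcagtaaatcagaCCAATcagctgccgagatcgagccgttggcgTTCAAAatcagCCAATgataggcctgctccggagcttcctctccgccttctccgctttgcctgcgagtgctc
Ccnb2, chr9:70421526-70421684, minus strand: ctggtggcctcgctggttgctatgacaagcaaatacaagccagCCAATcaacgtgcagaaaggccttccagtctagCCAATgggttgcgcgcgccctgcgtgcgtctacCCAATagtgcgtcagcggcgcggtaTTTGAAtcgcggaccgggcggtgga
Ttk, chr9:83834559-83834717, plus strand: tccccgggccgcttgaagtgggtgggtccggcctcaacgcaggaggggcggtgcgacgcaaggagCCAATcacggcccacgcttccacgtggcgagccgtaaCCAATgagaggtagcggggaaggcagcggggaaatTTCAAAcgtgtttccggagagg
Cenpe and Ccnb1, which the comparisons also turn on, held CCAAT but not TTTGAA. Among the 25 genes with TTTGAA, 8 were lower and 5 higher in M1 than in every primary line, and among the 9 without it, 5 were lower and 0 higher. Of all genes tested, 20.7% were lower and 22% higher. Genes outside the 42 were not split by motif, so these counts have no background for TTTGAA and do not relate the motif to the level in M1. The share of genes on each side was not tested, because the members are not independent of each other.

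The first comparison asked how the metastatic line M1 differed from the primary lines. M1 had a mixed pattern: 15 of the 42 genes were lower in M1 than in every primary line, 6 were higher than in every primary line, and 21 lay within the range of the primary lines. The genes with the lowest levels relative to the primary lines were Ckap2l and Ckap2, both of which encode spindle microtubule proteins, and Cenpe, the kinesin that brings chromosomes to the metaphase plate. No gene passed the test. With limma on log2(CPM + 1) and Benjamini-Hochberg adjustment, 0 of the 42 genes and 0 of 14888 genes tested (0%) had an adjusted p below 0.05, and the smallest adjusted p among the 42 was 0.304. At an unadjusted p below 0.05, 6 of the 42 were lower in M1, beside 5.15% of all genes tested, and 0 were higher, beside 4.53%. Of all genes tested, 20.7% were below every primary line, beside 35.7% of the mitotic genes, and 22% were above every primary line, beside 14.3%. Over genes that averaged 10 CPM or more, 29.6% were below and 23.7% above, beside the same 15 and 6 mitotic genes. The excess below was thus smaller when the mitotic genes were set beside genes of that level. The median log2 difference was -0.11 over the mitotic genes and -0.53 over all genes tested, so by the median M1 stood lower over the whole table than over these genes. Without P5 the order was turned, with -0.41 over the mitotic genes and -0.30 over all genes, and so it was over genes that averaged 10 CPM or more, with -0.11 and -0.05. By the mean the order was also turned, with -0.68 over the mitotic genes and -0.33 over all genes tested.

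The share below every primary line depended on which primary lines were set against M1 and on the scaling. Without P4, 21 mitotic genes were below both remaining lines, but so were 59.0% of all genes tested. Without P5 the count was 20, beside 24.8% of all genes, and without P1 it was 15, beside 23.0%. Quantile normalization gave 13, beside 31.4% of all genes. The count above every primary line was 10 without P1, beside 25.2% of all genes, and 12 without P4, beside 27.6%.

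**Figure D2:**
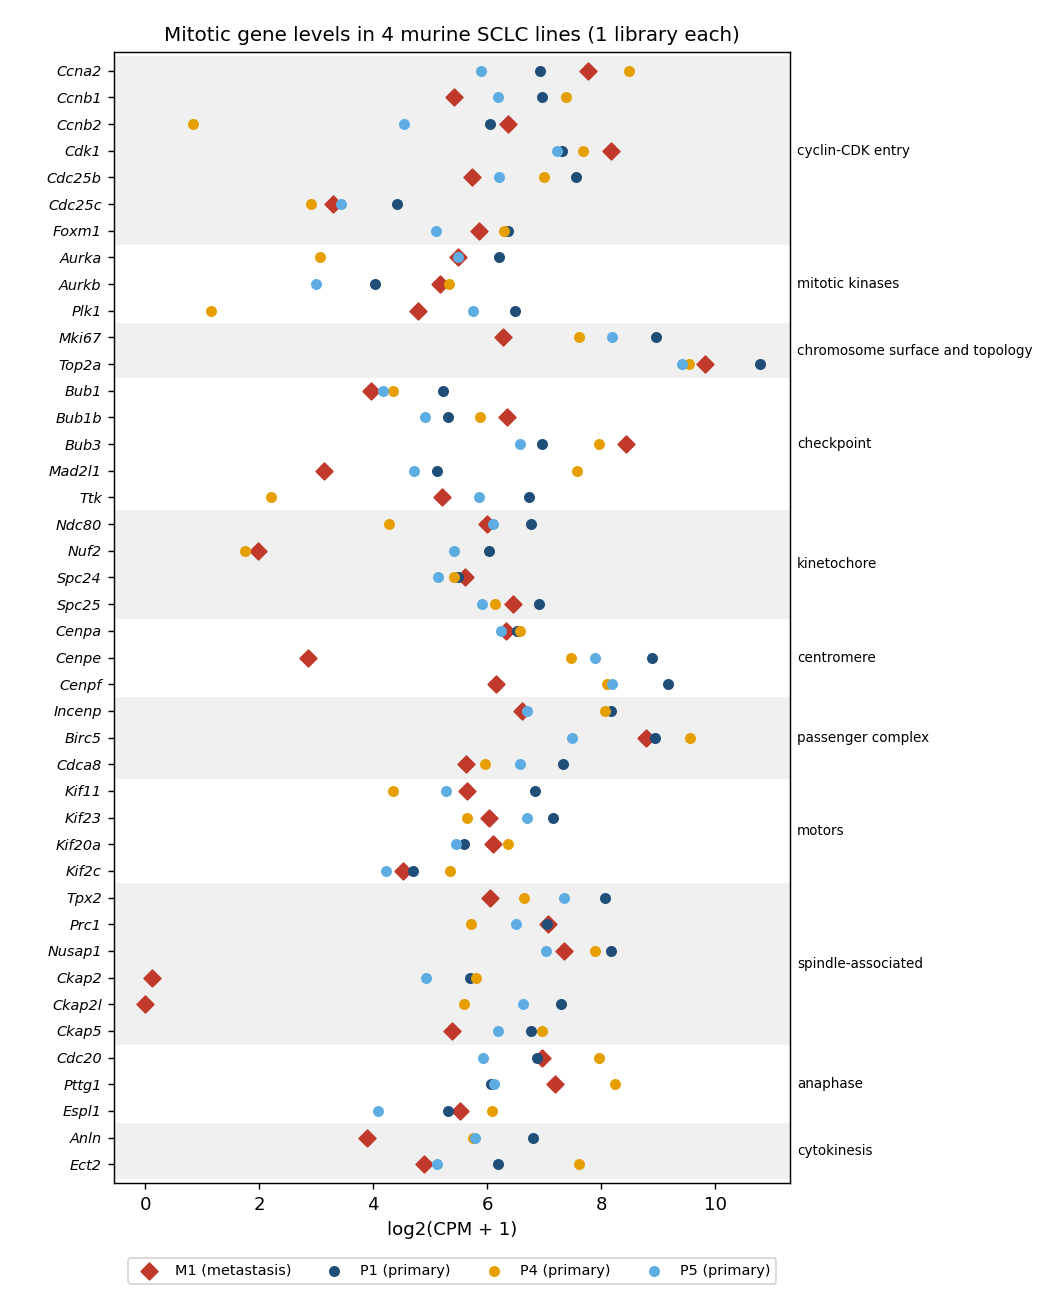
Level of each of the 42 mitotic genes in the 4 lines, as log2(CPM + 1), with 1 point per library, M1 as diamonds and P1, P4 and P5 as circles, grouped by role. Ckap2l, listed at 0 in M1, and Ckap2 and Cenpe stand apart from their primary-line points, while P4 lies far to the left for Ccnb2, Plk1 and Ttk.

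Among the genes of mitotic entry, Cdk1, the kinase that drives it, had 286 CPM in M1, against 157.3 in P1, 204 in P4 and 150 CPM in P5. Its value in M1 was above all 3 primary lines, with a log2 difference of 0.76 ± 0.41 (SE, limma, adjusted p = 0.721). Its cyclin partners went separate ways. Ccnb1, cyclin B1, had 41.99 CPM in M1, against 124 in P1, 166 in P4 and 72.4 CPM in P5. Its log2 difference was -1.42 ± 0.64 (SE, limma, adjusted p = 0.656). Ccnb2, cyclin B2, had 81.5 CPM in M1, against 65.3 in P1, 0.792 in P4 and 22.3 CPM in P5. M1 was thus lowest of the 4 lines for cyclin B1 and highest for cyclin B2, and the P4 value of Ccnb2 rested on 11 reads. Ccna2, cyclin A2, had 218 CPM in M1, within the range of 58.3 to 359 CPM in the primary lines. Cdc25b, a phosphatase that activates CDK1, was below every primary line at 52.3 CPM in M1, against 129 ± 56.9 CPM in the primary lines (SD, n = 3), whereas its relative Cdc25c lay within their range at 8.86 CPM, against 6.55 to 20.4 CPM. Foxm1, the transcription factor of G2 and mitotic genes, had 56.9 CPM in M1, within the 33.5 to 81.7 CPM of the primary lines.

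All 3 mitotic kinases lay within the range of the primary lines, and for Aurka and Plk1 that range was wide because of P4. Aurka, the centrosome kinase Aurora A, had 44.0 CPM in M1, against 73.4 in P1, 7.34 in P4 and 43.7 CPM in P5. Plk1, which acts at centrosomes and kinetochores, had 26.8 CPM in M1, against 88.6 in P1, 1.22 in P4 and 52.8 CPM in P5. P4 was the lowest line for both. Aurkb, the catalytic subunit of the passenger complex, had 35.3 CPM in M1, against 15.4 in P1, 39.3 in P4 and 7.03 CPM in P5, so here P4 was the highest line. Of the chromosome proteins, Mki67, which coats mitotic chromosomes and is used as a proliferation marker, had 76.3 CPM in M1, against 500 in P1, 194 in P4 and 290 CPM in P5. The groups did not overlap, and the log2 difference was -1.98 ± 0.67 (SE, limma, adjusted p = 0.491). Top2a, the topoisomerase that untangles sister chromatids, had 902 CPM in M1, within the 682 to 1758 CPM of the primary lines.

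The spindle checkpoint genes split in both directions. Bub3, which recruits BUB1 and BUBR1 to kinetochores, had 345 CPM in M1, against 124 in P1, 248 in P4 and 94.9 CPM in P5, with a log2 difference of 1.26 ± 0.69 (SE, limma, adjusted p = 0.721). Bub1b, which encodes the BUBR1 inhibitor of the anaphase-promoting complex, had 80.3 CPM in M1, against 38.9 in P1, 57.5 in P4 and 29.1 CPM in P5. For both genes M1 was highest and P4 was the nearest primary line. Mad2l1, which encodes MAD2, the CDC20 inhibitor, had 7.79 CPM in M1 (87 reads), against 33.9 in P1, 191 in P4 and 25.2 CPM in P5. M1 was lowest and P4 highest, and the log2 difference was -2.67 ± 1.40 (SE, limma, adjusted p = 0.721). Bub1, a checkpoint kinase, was also lowest in M1, at 14.6 CPM, against 17.0 to 36.4 CPM in the primary lines. Ttk, the MPS1 kinase at the top of the checkpoint, had 35.8 CPM in M1, against 105 in P1, 3.60 in P4 and 57.2 CPM in P5, and P4 was again the lowest line.

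At the kinetochore, the 4 subunits of the NDC80 complex, which binds microtubule ends, did not share 1 pattern. Nuf2 had 2.95 CPM in M1, against 64.8 in P1, 2.38 in P4 and 41.6 CPM in P5. It was low in M1 and P4, with 33 reads in each, and high in P1 and P5. Its direct partner Ndc80 had 62.8 CPM in M1, against 108 in P1, 18.4 in P4 and 67.5 CPM in P5. Spc24 and Spc25, the subunits on the centromere side, varied less. Spc24 was 47.6 CPM in M1, against 40.0 ± 5.11 CPM in the primary lines (SD, n = 3), and Spc25 was 86.6 CPM in M1, against 59.0 to 120 CPM. Cenpa, the centromeric histone H3 variant, was close to level across the lines, with 79.5 CPM in M1, against 86.9 ± 10.5 CPM in the primary lines (SD, n = 3).

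Cenpe (chromosome 3, 135212563 to 135273540, GRCm38.p6) had 6.27 CPM in M1, from 70 reads, against 473 in P1, 176 in P4 and 236 CPM in P5. The M1 value was 0.0212 times the primary mean, and the groups were far apart. The log2 difference was -5.22 ± 0.72 (SE, limma, unadjusted p = 0.00226, adjusted p = 0.304). Cenpf, a large protein of the kinetochore corona, had 70.5 CPM in M1, against 573 in P1, 273 in P4 and 292 CPM in P5, with a log2 difference of -2.33 ± 0.61 (SE, limma, adjusted p = 0.363). It was lower in M1 than in every primary line, as was Cenpe, while the histone variant on which both proteins' sites are built was not.

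In the passenger complex, which corrects faulty attachments, the subunits differed. Incenp, the scaffold, had 96.2 CPM in M1, against 286 in P1, 268 in P4 and 104 CPM in P5, and Cdca8, the borealin subunit, had 48.6 CPM in M1, against 160, 61.6 and 93.9 CPM. Both were lowest in M1, Incenp only narrowly below P5. Birc5, which encodes survivin, had 439 CPM in M1, within the 179 to 755 CPM of the primary lines.

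The 4 motors lay within the range of the primary lines. Kif11, the kinesin that pushes spindle poles apart, had 48.9 CPM in M1, against 114 in P1, 19.4 in P4 and 38.0 CPM in P5. Kif23, of the central spindle, had 64.8 CPM in M1, against 49.0 to 141 CPM, and Kif20a, which also acts there, had 67.9 CPM in M1, against 43.0 to 81.6 CPM. Kif2c, the microtubule depolymerase at centromeres, had 22.0 CPM in M1, against 17.8 to 39.5 CPM.

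The spindle-associated proteins held the lowest values of all. Ckap2l (chromosome 2, 129268210 to 129297228), a spindle protein also known as radmis, was listed at 0 in M1, against 155 in P1, 47.0 in P4 and 98.0 CPM in P5, or 1479, 653 and 1129 reads. It was the only one of the 42 genes listed at 0 in any line (limma, adjusted p = 0.304). Its relative Ckap2 (chromosome 8, 22168149 to 22185819) had 0.0895 CPM in M1, against 51.1 in P1, 55.2 in P4 and 29.5 CPM in P5. That M1 value corresponds to 1 read, and its ratio to the primary mean was 0.00198, with a 95% exact Poisson interval of 5.01e-05 to 0.0110 that covers counting error only. The log2 difference was -5.36 ± 0.87 (SE, limma, adjusted p = 0.304). Both genes were thus at or near 0 in M1 and well above the 3-read floor of 0.216 to 0.315 CPM in every primary line, P4 included. Ckap5, the microtubule polymerase, had 40.8 CPM in M1, against 109 in P1, 124 in P4 and 72.1 CPM in P5, with a log2 difference of -1.26 ± 0.53 (SE, limma, adjusted p = 0.623). Tpx2, which activates Aurora A on the spindle, had 65.1 CPM in M1, against 267 in P1, 99.8 in P4 and 162 CPM in P5, with a log2 difference of -1.31 ± 0.70 (SE, limma, adjusted p = 0.721). Both were lowest in M1. Prc1, which bundles the central spindle, had 133 CPM in M1, against 132 in P1, 51.5 in P4 and 89.5 CPM in P5, barely above P1, and Nusap1 had 162 CPM in M1, within the 130 to 288 CPM of the primary lines.

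All 3 anaphase genes lay within the range of the primary lines, and P4 was the highest line for each. Cdc20 had 124 CPM in M1, against 116 in P1, 248 in P4 and 59.9 CPM in P5. Pttg1, which encodes securin, had 145 CPM in M1, against 66.3, 302 and 68.7 CPM. Espl1, which encodes separase, had 45.2 CPM in M1, against 38.7, 67.2 and 16.0 CPM. Both cytokinesis genes were lowest in M1. Anln, the contractile ring scaffold anillin, had 13.9 CPM in M1, against 110 in P1, 52.8 in P4 and 54.3 CPM in P5, with a log2 difference of -2.22 ± 0.69 (SE, limma, adjusted p = 0.447). Ect2, the exchange factor that activates RhoA at the cell equator, had 28.6 CPM in M1, against 71.9, 194 and 33.8 CPM.

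**Figure D3:**
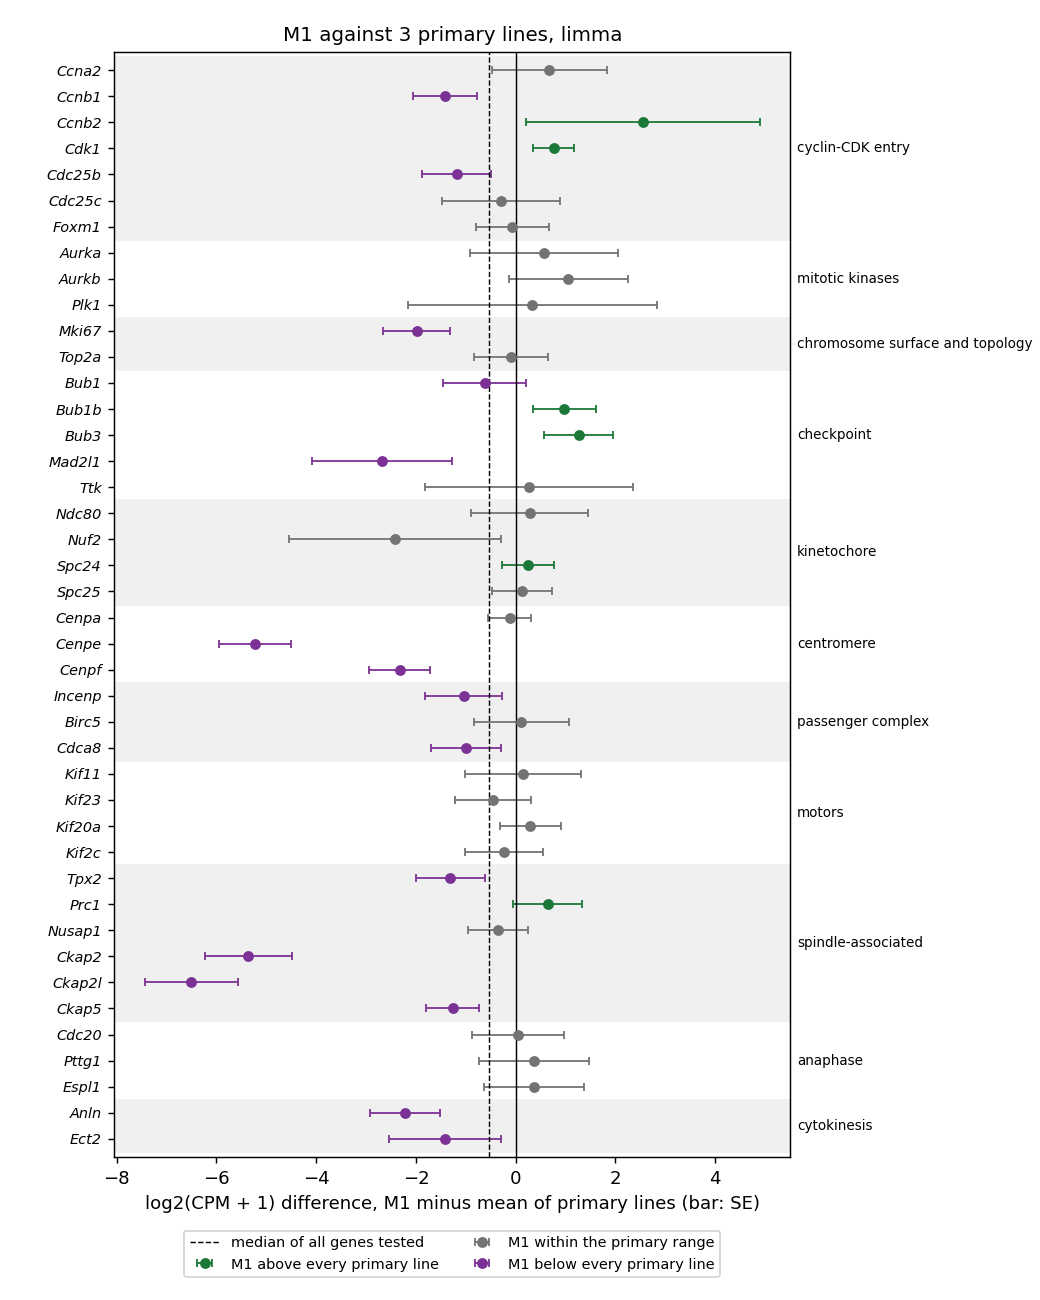
Difference in log2(CPM + 1) between M1 and the mean of P1, P4 and P5 for each mitotic gene (point, with the limma SE as bar), coloured by whether M1 lay below, above or within the primary lines. The dashed line marks the median of all genes tested, -0.53, and the place of Ckap2l, listed at 0 in M1, depends on the pseudocount of 1 CPM.

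By role, none of the mitotic kinases, NDC80 subunits, motors or anaphase genes was below every primary line, beside 20.7% of all genes tested. Each role holds only 2 to 7 genes, and differences between roles were not tested. Without P4, Plk1, Ndc80, Nuf2 and Kif23 were below both P1 and P5, beside 59.0% of all genes. Aurkb, Spc24, Kif20a and the 3 anaphase genes were then above both, beside 27.6%. The 15 genes below every primary line comprised 4 of 6 spindle-associated genes, 2 of 3 centromere genes, 2 of 3 passenger genes, both cytokinesis genes, 2 of 5 checkpoint genes, 2 of 7 entry genes and Mki67. The 6 genes above every primary line were Cdk1, Ccnb2, Bub1b, Bub3, Spc24 and Prc1. The genes below had longer transcripts, with a median length of 4198 bases, against 3318 bases for those above and 2737 bases for those within. Over the 42 genes, Spearman's rho between transcript length and the M1 difference was -0.24, against -0.10 over 14234 genes tested that had a length. This is a description across genes of the same 4 libraries, and the part of length in the result was not tested. With 1 line against 3, the spread came from the primary lines alone, and an exact permutation of the lines cannot give a p below 0.25.

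Among the primary lines, P5 stood below P1 for nearly the whole set. P5 was lower than P1 for 41 of the 42 genes, and Pttg1, with 68.7 CPM in P5, against 66.3 CPM in P1, was the exception. The members' log2 differences, P5 minus P1, ran between -1.56 and 0.05, with a median of -0.78 and an SD of 0.40. Over all genes tested the median was 0.18, the SD was 1.08 and 39.4% of genes were lower in P5. Of the 42 genes, 15 were lower in P5 by at least 1 log2 unit, beside 6.59% of all genes tested, and 0 were higher by as much, beside 18.7%. The count of 41 held with the values rescaled by the median ratio of genes and with quantile normalization. The ratio of P5 to P1 was between 0.333 for Kif11 and 0.950 for Cdk1 among the 41 genes. Each line is 1 library, so no test of this difference was possible. P5 also had the higher summed fibroblast markers, 924 CPM against 89.7 CPM in P1, and the higher summed neuroendocrine markers, 1389 CPM against 345 CPM. Among the fibroblast markers Dcn went the other way, at 2.43 CPM in P5, against 21.8 CPM in P1. Most of both neuroendocrine sums was Ncam1, at 1057 CPM in P5 and 340 CPM in P1. The summed epithelial markers were lower, 142 CPM in P5, against 2664 CPM in P1, and most of that P1 sum was Krt8 and Krt18. Epcam and Cdh1 went the other way, at 27.7 and 49.6 CPM in P5, against 1.26 and 14.6 CPM in P1. The part of these markers in the difference between P5 and P1 was not tested.

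Against P1, P4 was far lower for some mitotic genes and higher for others of the same role, with a spread below that of the whole table. The members' log2 differences had an SD of 1.85 for P4 minus P1, against an SD of 2.10 over all genes tested, and their range was -5.33 to 2.46. Of the 42 genes, 6 were at least 1 log2 unit higher in P4 than in P1, beside 12.4% of all genes tested, and 18 were lower by as much, beside 48.5%. Against P5, 13 were higher in P4, beside 12.1%, and 8 were lower, beside 57.2%. Relative to both P1 and P5, and over genes that reached 10 CPM in each of them (7534 genes, 40 of the mitotic genes), P4 was at least 2 log2 units lower for 5 mitotic genes, beside 32.1% of all such genes. These were Ccnb2, Aurka, Plk1, Ttk and Nuf2. Mad2l1 and Pttg1 were at least 2 log2 units higher in P4 than in both, beside 1.62% of all such genes. Thus 1 checkpoint gene, Ttk, had 0.0343 times the P1 level in P4, from 50 reads, while another, Mad2l1, had 5.62 times the P1 level. Cyclin B2 in P4 was 0.0121 times its P1 level, while cyclin A2 was 2.97 times and cyclin B1 1.34 times. Plk1 in P4 was 0.0138 times its P1 level, from 17 reads, whereas Aurkb was 2.55 times its P1 level. P4 was the library with the fewest symbols above 0, and the share of mitotic genes far below both P1 and P5 was smaller than the share of all genes. Genes under 10 CPM in P1 or P5 were left out, so by construction genes high in P4 alone were missed. The shares below and above are for this reason not comparable with each other.

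M1 was set beside P1 and P5 by the same rule. M1 was at least 2 log2 units lower than both for Nuf2, Cenpe, Cenpf, Ckap2 and Ckap2l, beside 21% of all such genes, and for 0 mitotic genes was it higher by as much, beside 1.09%. Nuf2 was the only gene in both the M1 and the P4 group of 5. The same overlap over all such genes was not counted, so this one has no background. These comparisons share P1 and P5, so the lists for M1 and P4 are not independent.

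**Figure D4:**
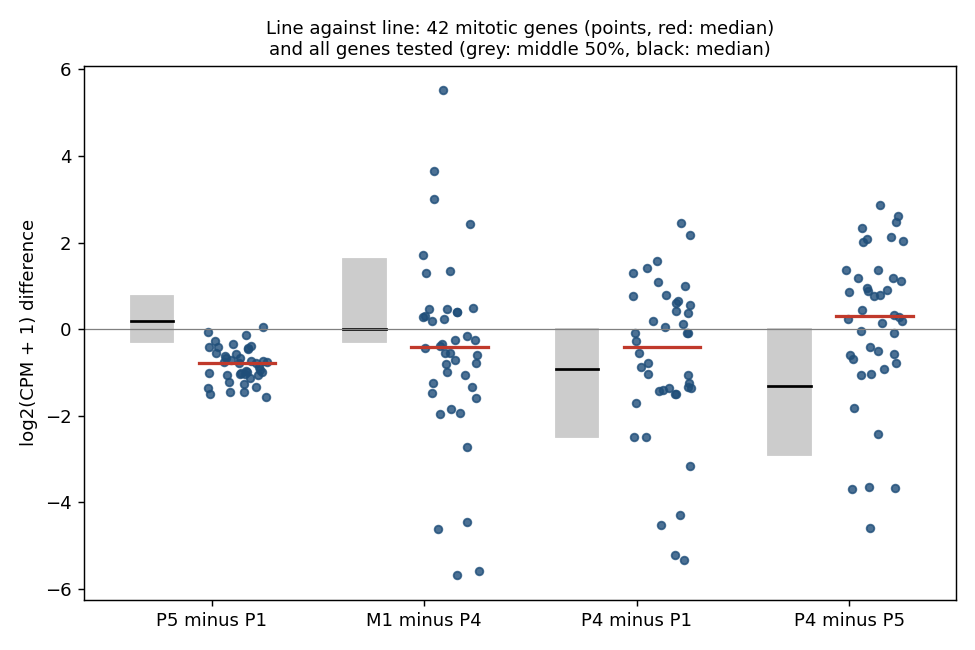
Differences in log2(CPM + 1) between pairs of lines for the 42 mitotic genes (points, red line at their median), beside the middle 50% (grey) and the median (black) of all genes tested. The points of P5 minus P1 are packed between -1.56 and 0.05, and those of M1 minus P4 run between -5.69 and 5.52.

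Between M1 and P4, the lines with the fewest symbols above 0, the mitotic genes ran furthest apart of the 4 pairs of lines compared. M1 was at least 1 log2 unit higher than P4 for 7 of the 42 genes, beside 29.7% of all genes tested, and at least 1 log2 unit lower for 13, beside 16.5%. The SD of the differences was 2.17 over the mitotic genes and 2.35 over all genes tested. Ccnb2 was 103 times, Plk1 21.9 times and Ttk 9.95 times as high in M1 as in P4. At the other end, M1 had 0.00162 times the P4 level of Ckap2, 0.0356 times that of Cenpe and 0.0409 times that of Mad2l1. Each of these differences is between 1 library and another and has no replicate check.

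Across the 4 lines, P1 was highest for 22 of the 42 genes, P4 for 14, M1 for 6 and P5 for 0. P5 was lowest for 16, M1 for 15, P4 for 10 and P1 for 1. Of all genes tested, 22% were above and 20.7% below every primary line in M1. P5 was higher than P1 for 59.0% of all genes tested, and P4 was lower than P1 for 69.7%. The shares of all genes highest or lowest in P1, P4 or P5 were not computed, so the counts for these lines have no background. The summed level of the 42 genes was 4213 CPM in M1, against 7673 in P1, 5874 in P4 and 3916 CPM in P5. M1 and P5 had the lower sums, but only M1 and P4 held genes under 5 CPM. In all, 31 of the 42 genes had at least 10 CPM in every line.

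Other genes of chromosome segregation were followed through 8 lists drawn from textbook roles, none of which shares a gene with the 42. With limma, 0 genes of any list passed the adjusted threshold. At an unadjusted p below 0.05, the test called 6 condensin and cohesin genes, 5 inner centromere genes, 4 outer kinetochore genes, 2 S phase genes and 1 gene each of the anaphase-promoting complex and motor lists. Over all genes tested, this threshold called 1441 of 14888. For the counts that follow, 20.7% of all genes tested were below every primary line and 22% above, with a median log2 difference of -0.53. The condensin and cohesin list, whose rings compact chromosomes and hold sister chromatids together, had 12 of 19 genes below every primary line (63.2%) and 0 above, with a median log2 difference of -0.91. Pds5b, a cohesin regulator, had 18.8 CPM in M1, against 249 in P1, 124 in P4 and 177 CPM in P5 (limma, adjusted p = 0.304). Ncapg, a condensin subunit, was listed at 0 in M1, against 108, 28.7 and 45.0 CPM (limma, adjusted p = 0.304). Without P4, 17 of the 19 were below both P1 and P5, beside the 59.0% of all genes given above. Ncapg2 had 38.2 CPM in M1, against 48.9, 38.4 and 23.0 CPM, and Stag2 had 29.6 CPM in M1, against 94.8, 0.648 and 86.5 CPM, both within the primary range.

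The inner centromere list had 8 of 20 genes below (40.0%, beside 20.7% of all genes) and 3 above (15.0%, beside 22%), and 5 of its genes were listed at 0 in M1, against 4 in P4. Cenpp was listed at 0 in M1, against 15.7 in P1, 46.5 in P4 and 14.9 CPM in P5. Cenpb, which binds centromeric satellite DNA, had 308 CPM in M1, against 93.3, 174 and 68.0 CPM, and Cenpw had 149 CPM in M1, against 82.5, 114 and 64.3 CPM. The list of further outer kinetochore and checkpoint genes had 5 of 16 below (31.2%) and 4 above (25%), near the shares of all genes. Zw10, which brings dynein to kinetochores, was listed at 0 in M1, against 24.5, 87.1 and 27.0 CPM, and Mad2l1bp was listed at 0 against 18.7, 20.8 and 16.1 CPM. Trip13, the ATPase that remodels MAD2, had 87.7 CPM in M1, against 23.1, 30.1 and 15.2 CPM, and Zwint had 132 CPM in M1, against 81.1, 77.2 and 82.0 CPM. The RNA of Mad2l1, which encodes MAD2, was lowest in M1, and a relation between it and Trip13 was not tested.

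The anaphase-promoting complex list had 5 of 18 genes below (27.8%, beside 20.7% of all genes) and 4 above (22.2%, beside 22%). Anapc4 and Anapc1 were below, at 47.6 CPM in M1, against 124 to 233 CPM, and 9.49 CPM in M1, against 24.7 to 76.0 CPM. Cdc16 and Anapc15 were above, at 98.3 CPM in M1, against 45.2 to 52.3 CPM, and 47.0 CPM in M1, against 8.64 to 19.6 CPM. Further spindle motors and midzone genes had 6 of 21 below (28.6%) and 3 above (14.3%). Kif4, a chromosome-bound kinesin, had 7.70 CPM in M1, against 25.9 to 71.6 CPM, and Cit, the citron kinase of cytokinesis, had 25.6 CPM in M1, against 45.9 to 90.6 CPM. Kif24 had 22.5 CPM in M1, against 0 to 1.91 CPM, and Racgap1, the partner of KIF23, had 308 CPM in M1, against 114 to 286 CPM. Further entry regulators had 3 of 13 below (23.1%) and 2 above (15.4%). These shares too were near those of all genes. Mastl, the Greatwall kinase, was listed at 0 in M1, against 5.76 to 23.0 CPM, and Pbk had 16.2 CPM in M1, against 37.9 to 73.5 CPM. Ensa, a Greatwall substrate, had 33.4 CPM in M1, against 0 to 20.7 CPM, and Wee1, the kinase that inhibits CDK1, had 48.5 CPM in M1, within 16.7 to 77.5 CPM.

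The DREAM and MuvB list, which holds the regulators of these promoters, had 0 of 10 tested genes below (beside 20.7% of all genes) and 5 above (50.0%, beside 22%), with a median log2 difference of 0.60. The difference was below 0 for 4 of the 10. Lin9, a MuvB core subunit, had 43.4 CPM in M1, against 22.4 in P1, 28.6 in P4 and 17.4 CPM in P5, and Rbbp4 had 363 CPM in M1, against 46.0, 301 and 129 CPM. Rbl2, the p130 pocket protein, was listed at 0 in M1 and P4, against 23.6 CPM (P1) and 20.8 CPM (P5), and Lin37 was at 0 in the same lines, against 4.83 and 3.64 CPM. Neither counted as below every primary line, since M1 and P4 were tied at 0. The S phase list, whose genes act before mitosis, had 6 of 24 below (25%, beside 20.7% of all genes) and 7 above (29.2%, beside 22%), with a median log2 difference of -0.03. Its helicase subunits went separate ways, with Mcm3 at 37.3 CPM in M1, against 127 to 306 CPM, and Mcm2 at 440 CPM in M1, against 53.5 to 257 CPM. Uhrf1 had 33.7 CPM in M1, against 45.0 to 90.4 CPM, and Ccne2, cyclin E2, had 140 CPM in M1, against 54.5 to 58.0 CPM.

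**Figure D5:**
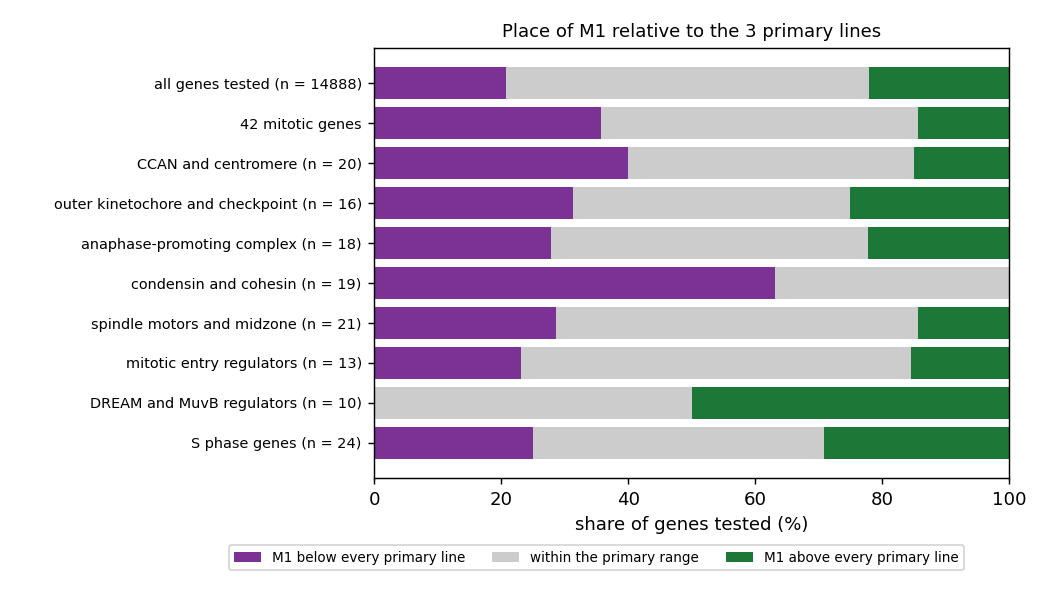
Share of genes tested, in percent, that lay below, within or above the 3 primary lines in M1, for the 42 mitotic genes, the 8 wider lists and all genes tested. The condensin and cohesin list had 12 of 19 genes below, and the DREAM and MuvB list had 0 of 10 below and 5 above.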

How the data were processed

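Total RNA from 4 untreated murine SCLC lines (M1, P1, P4 and P5, 1 library each) was sequenced in bulk. The library type differs between sources: the labels name a TruSeq total RNA kit and the study's methods a 3′ mRNA kit. Per the labels the build was mm10. How reads were counted was not given in the sources used here. The authors deposited CPM values (reads scaled to a total of 1000000 per library) in 1 table. Dividing by the smallest step gave whole reads, within 0.001, for 79.0% to 88.9% of values, too few for a count test.

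Rows without a symbol (85, at most 0.0130% of a library) were left out, and rows of the same symbol were summed. Every gene that reached 1 CPM in any library entered limma 3.58.1 (R 4.3.3) as log2(CPM + 1). Two-sided moderated p-values from lmFit and eBayes, with a trend, were adjusted by Benjamini-Hochberg over all these genes at a threshold of 0.05. Differences of low genes are understated by the added 1 CPM. The script was tested on simulated data. The labels do not say whether libraries came from separate cultures, so p-values cover only the spread between these samples. Full statistics were given for the 10 members of smallest unadjusted p, and wider lists by the pair of lowest p in each direction, except that some named items are not reported here. Other values were named for the pattern that they show, after they were seen. The members and lists were chosen with earlier results of these data known.

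Alternatives were pseudocounts of 0.1 and 5 CPM, no filter, a mean of at least 10 CPM, rescaling by the median ratio over genes above 0 in all libraries, quantile normalization, and leaving out each primary line. Rescaling of line pairs, and list counts with a primary line left out, were added after seeing the data. Promoter sequences and gene coordinates came from RefSeq (GRCm38.p6), using the first listed start of each protein-coding gene, and transcript lengths from the Ensembl canonical transcripts. No protein table was used here, so the planned search for KEN motifs was not run.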

Additional observations from a re-analysis of the deposited data

How the results depend on the processing

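With limma, 0 of the 42 genes passed the adjusted threshold under every one of the 9 alternatives, with the smallest adjusted p running between 0.0791 without P4 and 0.890 without P1. The number of genes below every primary line was 15 under both pseudocounts, beside 20.7% of all genes. It was also 15 with no filter, beside 13.9%, and with a mean of at least 10 CPM, beside 29.6%. Median-ratio scaling and quantile normalization each gave 13, beside 19.3% and 31.4%. With 1 primary line left out it was 15 to 21, beside 23.0% to 59.0%. The number above was 6 under both rescalings, beside 24.8% and 25.7%. It was 6 to 12 when 1 primary line was left out, beside 25.2% to 28.6%. The median log2 difference of the 42 genes was -0.11, and it was 0.05 with median-ratio scaling, -0.04 with quantile normalization and -0.43 to 0.01 with 1 primary line left out, so its sign was not stable. The median of all genes tested was -0.53 as deposited, -0.44 with median-ratio scaling and -0.06 with quantile normalization. Counting values under 1 CPM as 0, 2 genes were at 0 in M1 in place of 1, and 1 in P4 in place of 0. Counts of 12 condensin and cohesin genes below, and 5 DREAM and MuvB genes above, became 12 to 17 and 5 to 6 with a primary line left out. Over all genes the shares were then 23.0% to 59.0% below and 25.2% to 28.6% above. A planned fit with the number in the column names as a batch term was not run, since M1 shares its number with no primary line. No paired analysis was made, since whether any of the lines share an animal is not settled by the sources used here. Values from few reads carry the largest relative counting error, such as Ckap2 in M1 and Ccnb2 and Plk1 in P4. M1 and P4 had more assigned reads in total than P1, 11170276 and 13890726 against 9527011.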
